A study of Mus musculus with 4 samples.

Results

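The mouse genome names a long series of zinc finger protein genes Zfp followed by a number. The 181 genes described here are the protein-coding autosomal ones numbered 600 upward, with or without a letter after the number, among 20665 protein-coding autosomal genes in the RefSeq annotation of GRCm38 (the build also called mm10). The 3 other symbols of that pattern lie on the X chromosome or are a long non-coding RNA or a pseudogene, and were left out. The members lie on all 19 autosomes, 39 of them on chromosome 7, 24 on chromosome 17 and 17 on chromosome 4. They span 2.52 to 575 kb, with a median of 19.3 kb against 17.5 kb for all genes. A member was called clustered when one of its ends lay within 50 kb of another member, which applied to 89 genes in 32 runs, and single otherwise, which applied to 92 genes. The largest gap just inside that limit was 49943 bp (Zfp935 and Zfp934), and the smallest gap from a single member to another member was 52360 bp (Zfp956).

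Most numbered Zfp genes encode proteins with arrays of C2H2 zinc fingers, small folds held by a zinc ion that read DNA sequence. Many of them also carry a KRAB domain, which recruits the corepressor Trim28 and with it histone methylation and silencing, and many KRAB genes arose by tandem duplication and act on transposable elements. Trim33 is a relative of Trim28 in the same family of chromatin cofactors and acts with Smad proteins in TGF-beta and Nodal signalling. CTCF, itself a C2H2 zinc finger protein, occupies insulators and loop anchors. Acetylation of histone H3 at lysine 27 (H3K27ac) marks active promoters and enhancers.

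The study mapped Trim33, CTCF and H3K27ac by chromatin immunoprecipitation and sequencing in mouse embryoid bodies, aggregates of differentiating stem cells, at day 6. The stem cells came from blastocysts of genotype Trim33FF: UbcCreERT2, a floxed Trim33 allele with a ubiquitously driven, tamoxifen-inducible Cre, on the background Outbred - B6:129Sv, and the labels name no inducing agent. With a single library per antibody and 1 of input DNA, no value here has a replicate spread, no test between libraries was possible, and intervals cover counting error only. In the authors' deposited summary the Trim33 library held 13643929 tags, with 0.72% of reads inside its 4426 peaks. The CTCF library held 33090822 tags (26.46% in 52446 peaks), the H3K27ac library 29995044 (13.02% in 30047 peaks) and the input 25729171. Trim33 thus had the fewest tags and peaks, and a member without a peak in it may lie below detection at this depth. Embryoid bodies mix cell types, so a peak in few of the cells and a weak one in all of them cannot be told apart. H3K27ac peaks lay at 5 of 6 pluripotency genes (Lin28a to 36.6-fold), 3 of 4 endoderm genes, 3 of 3 neural genes and 1 of 6 mesoderm genes (Gata4, 11.2-fold). None of 4 genes of other cells had one (Thy1, Ptprc, Myh6 and Alb). Of all protein-coding autosomal genes 48.6% had an H3K27ac peak, so these short lists describe the material and separate no cell type.

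A peak was given to a gene when its summit lay inside the gene or within 1 kb of an end. The CTCF summit nearest to that limit inside it lay 950 bp beyond Zfp961 (4.69-fold) and outside it 1041 bp beyond Zfp809 (5.7-fold). For H3K27ac they lay 944 bp beyond Zfp646 (17.5-fold) and 1104 bp beyond Zfp750 (6.46-fold), and for Trim33 565 bp beyond Zfp958 (6.43-fold) and 1698 bp beyond Zfp691 (4.75-fold). Heights are the authors' fold enrichment over background at the summit, used only to rank peaks within 1 list. Positions relative to a transcript start were available for 158 members, 79 clustered and 79 single, through the RefSeq table of promoter windows (GRCm38.p6, 250 bases before to 50 after the start), which holds 16457 of all genes.

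Trim33 summits fell inside the promoter window of 4 members, and these windows are shown because they hold the summits themselves. Trim33 peaks with their summit elsewhere can also reach into a member's window. The 21 bases centred on the Trim33 summit are in capitals, cut short at the window's end for Zfp964, and each sequence runs 5′ to 3′ on the gene's own strand. Zfp809 encodes a KRAB protein that silences retroviral DNA in mouse embryonic cells. Its window (chr9:22225453-22225752, plus strand) held a Trim33 summit of 5.5-fold, 7 bp before the transcript start.
Zfp809: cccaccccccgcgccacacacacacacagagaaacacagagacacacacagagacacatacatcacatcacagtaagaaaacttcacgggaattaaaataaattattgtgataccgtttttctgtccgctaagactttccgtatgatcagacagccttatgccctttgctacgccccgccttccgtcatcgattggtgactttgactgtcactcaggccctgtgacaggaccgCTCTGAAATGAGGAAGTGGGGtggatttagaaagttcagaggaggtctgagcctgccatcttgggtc
Zfp964 (chr8:69654306-69654605, plus strand) had a Trim33 summit of 6.0-fold just after its start.
Zfp964: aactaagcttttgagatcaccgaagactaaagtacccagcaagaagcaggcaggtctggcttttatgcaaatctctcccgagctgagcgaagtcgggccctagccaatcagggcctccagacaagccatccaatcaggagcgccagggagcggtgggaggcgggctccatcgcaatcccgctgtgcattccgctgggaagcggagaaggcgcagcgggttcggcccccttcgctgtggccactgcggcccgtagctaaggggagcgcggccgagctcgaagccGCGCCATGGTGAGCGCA
Zfp729a (chr13:67637732-67638031, minus strand) had a Trim33 summit of 5.33-fold just after its start.
Zfp729a: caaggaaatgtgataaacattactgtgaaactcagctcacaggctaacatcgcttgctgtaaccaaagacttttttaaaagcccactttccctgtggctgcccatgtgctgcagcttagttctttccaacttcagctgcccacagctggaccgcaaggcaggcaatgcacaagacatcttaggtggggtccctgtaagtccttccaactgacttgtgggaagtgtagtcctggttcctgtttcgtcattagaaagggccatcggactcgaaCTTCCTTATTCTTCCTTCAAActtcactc
Zfp629 (chr7:127615223-127615522, minus strand) had a Trim33 summit of 5.7-fold, 127 bp before its start.
Zfp629: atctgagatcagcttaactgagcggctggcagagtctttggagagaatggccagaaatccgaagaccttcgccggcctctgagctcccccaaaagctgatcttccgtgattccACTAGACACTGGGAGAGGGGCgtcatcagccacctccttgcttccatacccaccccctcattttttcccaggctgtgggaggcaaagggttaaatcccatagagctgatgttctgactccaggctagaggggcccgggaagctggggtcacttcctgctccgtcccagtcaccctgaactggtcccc
These windows held 11, 24, 5 and 8 CpG sites for Zfp809, Zfp964, Zfp729a and Zfp629. None of the 4 held the CTCF core motif, CCGGAAG (an ETS family motif) or GTCTAGAC (a Smad palindrome), searched on both strands.

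Trim33 peaks lay at 19 of the 181 members, a share of 10.5% (95% Wilson interval 6.82 to 15.8%). Zfp genes numbered below 600 had them at 23 of 205 (11.2%), and all protein-coding autosomal genes at 11.6%. Within 1 kb of a transcript start the counts were 11 of 158 members (6.96%), against 13 of 166 lower-numbered Zfp genes (7.83%) and 7.01% of all genes. The members' share of Trim33 was thus near the background under both rules. Each of the 19 members had 1 Trim33 peak, of 3.5- to 9.8-fold with a median of 5.5, against 5.67 over the whole list.

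**Figure D1:**
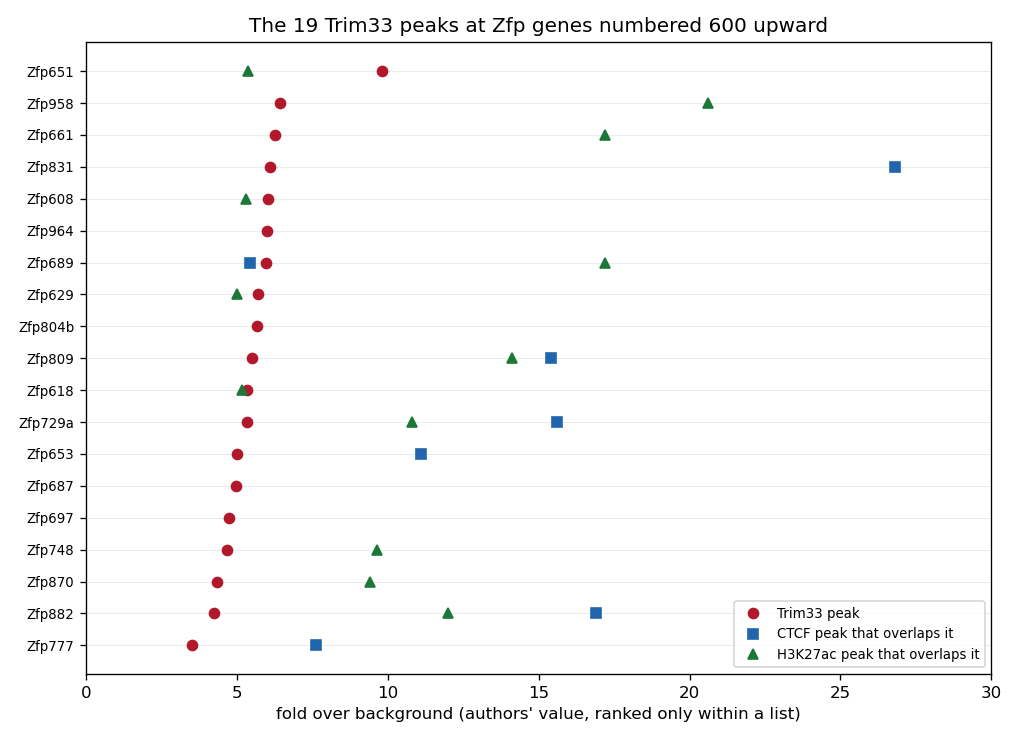
The horizontal axis gives the authors' fold over background of the 19 Trim33 peaks at Zfp genes numbered 600 upward (red circles, 1 member a row, highest at the top) and of any CTCF (blue squares) or H3K27ac peak (green triangles) that overlaps them. The folds of the antibodies are not on 1 scale. Zfp651 stands apart at 9.8-fold, the other 18 lie between 3.5 and 6.43, and 4 rows carry no overlapping peak.

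Zfp651 had the highest Trim33 peak (chr9:121760459-121760924, 9.8-fold, rank 116 of 4426), 725 bp downstream of its start. It overlapped an H3K27ac peak of 5.38-fold, while the higher H3K27ac peak of the gene (12.3-fold) lay 206 bp before the start. Next came Zfp958 at 6.43-fold (chr8:4612498-4612913) and Zfp661 at 6.25-fold (chr2:127587421-127587658), each a little upstream of the start and overlapping a high H3K27ac peak, of 20.6-fold at Zfp958 and 17.2-fold at Zfp661. The Zfp661 peak also lay in the window of the neighbouring gene Mrps5. Zfp831 at 6.08-fold (chr2:174674053-174674437) lay over a CTCF peak of 26.8-fold inside the gene. Zfp608, a zinc finger gene known as a repressor of the Rag genes in mouse thymocytes, had 6.03-fold inside the gene, over an H3K27ac peak of 5.31-fold.

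Of the other named members with Trim33, those with a peak near the start were Zfp689 (5.96-fold, 378 bp downstream, over CTCF of 5.43-fold and H3K27ac of 17.2-fold) and Zfp687 (4.97-fold, 97 bp downstream, over neither). The human counterpart of Zfp687 belongs to a chromatin complex with the histone reader ZMYND8. The Zfp809 peak overlapped CTCF of 15.4-fold and H3K27ac of 14.1-fold, and that of Zfp729a overlapped CTCF of 15.6-fold and H3K27ac of 10.8-fold. The Zfp629 peak overlapped H3K27ac of 4.99-fold alone. The peak of Zfp964 overlapped neither, and that gene had no CTCF or H3K27ac peak in its window.

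Away from starts, Zfp804b, the longest member at 575 kb, had 5.67-fold deep inside the gene, 548545 bp downstream of its start and over neither other peak. Zfp618 had 5.33-fold in its body over H3K27ac of 5.18-fold. The 5.0-fold peak of Zfp653 lay beyond its far end, over CTCF of 11.1-fold. The 5 lowest, named after their values were seen, were Zfp697 (4.75-fold), Zfp748 (4.67), Zfp870 (4.33), Zfp882 (4.25) and Zfp777 (3.5). Among them only Zfp882 had its Trim33 peak over both CTCF (16.9-fold) and H3K27ac (12.0-fold).

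Of the 19 Trim33 peaks at members, 12 (63.2%) overlapped an H3K27ac peak by at least 1 bp and 7 (36.8%) a CTCF peak, against 42.6% and 44.7% of the whole Trim33 list. They divided into 4 with both, 8 with H3K27ac alone, 3 with CTCF alone and 4 with neither. With 16 of them at members of known start, 11 (68.8%) lay within 1 kb of it, 4 (25%) further inside and 1 (6.25%) at the far end. At lower-numbered Zfp genes 82.4% of the Trim33 peaks lay within 1 kb of the start, and at other genes 55.5%. The whole list also holds peaks outside gene windows, so the overlap shares above compare sets of unlike makeup, and 19 peaks are few.

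CTCF peaks lay at 64 of 181 members, or 35.4% (28.8 to 42.6%), against 92 of 205 lower-numbered Zfp genes (44.9%, 38.2 to 51.7%) and 53.1% of all genes. The members' interval lay below the share of all genes. Counted within 1 kb of a transcript start, CTCF was at 31 of 158 members (19.6%, 14.2 to 26.5%), at 24.7% of lower-numbered Zfp genes and at 22.7% of all genes, and the members' interval held both. Per length, the 111 CTCF summits at members came to 16.8 per Mb of gene and window (exact Poisson interval 13.8 to 20.3), against 31.1 per Mb (27.1 to 35.4) at lower-numbered Zfp genes and 29.5 per Mb at other genes. Of those with a known start, 35 of 88 (39.8%) lay within 1 kb of it and 49 (55.7%) further inside, while 74.7% of CTCF peaks at other genes lay further inside. Fewer CTCF peaks per length at members thus went with fewer of them in gene bodies, and their median height of 9.37-fold was close to the 9.46-fold of the whole list. The length behind the members' density includes 24 members in a pair of regions on chromosomes 2 and 4, described below, that had no CTCF peak. The density was not recomputed without them.

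**Figure D2:**
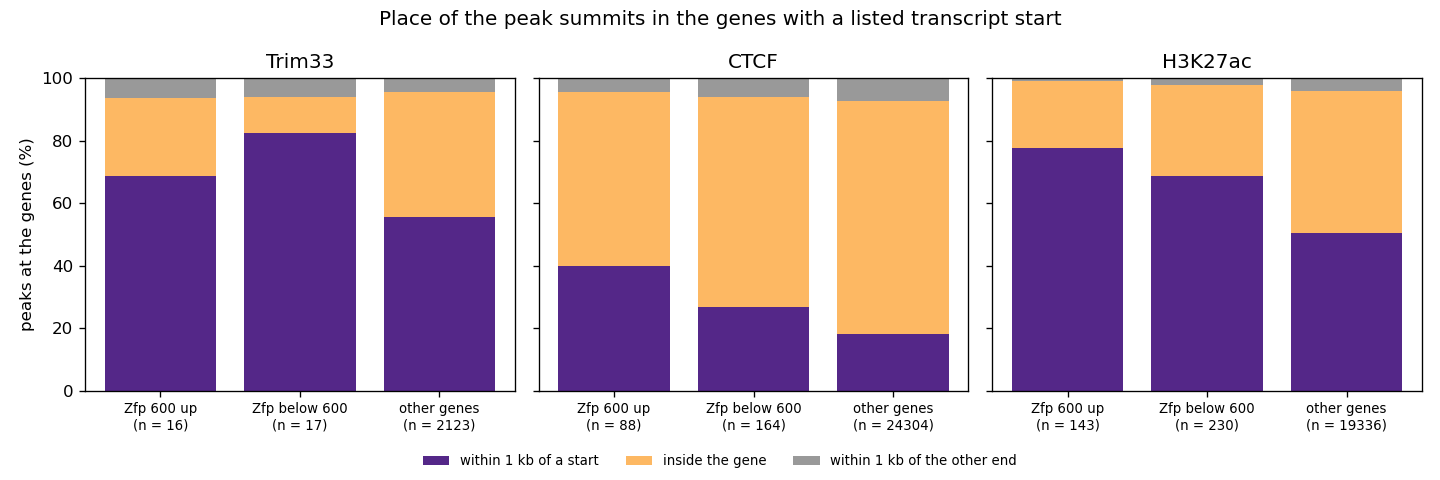
Bars give the percent of Trim33, CTCF and H3K27ac peaks (1 panel each) that lie within 1 kb of a transcript start, further inside the gene or within 1 kb of the other end, for Zfp genes numbered 600 upward, those below 600 and other genes (n peaks under each bar). For CTCF the share at starts was 39.8% at the members, 26.8% at lower-numbered Zfp genes and 18.1% at other genes. For H3K27ac it was 77.6%, 68.7% and 50.5%.

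The highest CTCF peak at a member was that of Zfp786 (chr6:47830031-47831103, 48.3-fold, rank 50 of 52446), with its summit 93 bp before the start. Its promoter window (chr6:47830456-47830755, minus strand) is shown because it was the 1 window, among the 11 members' with a CTCF summit, that held the CTCF core motif. The motif, in capitals, begins at base 161 of the window and the summit lay at base 158.
Zfp786: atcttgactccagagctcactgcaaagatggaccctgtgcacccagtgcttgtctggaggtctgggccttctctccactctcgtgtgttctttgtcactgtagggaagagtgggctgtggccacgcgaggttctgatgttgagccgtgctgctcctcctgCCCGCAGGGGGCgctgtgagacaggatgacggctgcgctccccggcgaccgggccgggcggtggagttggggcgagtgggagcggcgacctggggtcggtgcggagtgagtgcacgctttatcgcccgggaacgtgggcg
Zfp639 had a CTCF peak of 38.1-fold with its summit 153 bp before the start, next to an H3K27ac peak of 19.5-fold that overlapped it. Its window (chr3:32510342-32510641, plus strand) is shown for contrast with Zfp786, as it held none of the motifs searched, with the 21 bases at the CTCF summit in capitals.
Zfp639: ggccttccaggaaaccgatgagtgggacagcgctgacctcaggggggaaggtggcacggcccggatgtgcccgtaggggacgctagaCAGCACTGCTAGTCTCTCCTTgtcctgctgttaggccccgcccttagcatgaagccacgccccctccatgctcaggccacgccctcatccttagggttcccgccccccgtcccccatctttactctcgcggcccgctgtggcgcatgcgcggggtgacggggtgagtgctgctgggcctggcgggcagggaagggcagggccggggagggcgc
Over all members the CTCF core lay in 3 of 158 windows (1.9%), against 1.97% of all genes' windows. A window without the motif says only that these letters do not occur in it.

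Zfp703, which encodes a transcriptional corepressor, had the second highest CTCF peak, 40.5-fold just beyond an end of the gene (chr8:26981671-26982953), with 2 lower CTCF peaks of 5.4- and 9.08-fold and no Trim33 or H3K27ac peak. Zfp746, which encodes PARIS, a repressor of the gene of the mitochondrial coactivator PGC-1alpha, had 30.2-fold at 45 bp before its start, over H3K27ac peaks of 7.98- and 11.4-fold. Zfp831 followed with 26.8-fold and Zfp663 with 26.3-fold, both inside the gene. The most CTCF peaks, 5 each, lay at Zfp704, of 3.92- to 19.2-fold over 183 kb, and at Zfp607b, of 3.93- to 21.5-fold over 31.8 kb.

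H3K27ac peaks lay at 106 of 181 members, or 58.6% (51.3 to 65.5%), against 154 of 205 lower-numbered Zfp genes (75.1%, 68.8 to 80.5%) and 48.6% of all genes. The members thus stood between the others, above the share of all genes and below that of their lower-numbered relatives, with intervals that did not overlap. Among the members, 24 lie in a pair of regions on chromosomes 2 and 4 that held almost no peak. Without them H3K27ac was at 66.9% of members (59.2 to 73.8%), still below 75.1% but with an interval that overlaps that of the lower-numbered genes. These regions were chosen after the peaks had been seen, so leaving them out raises the share by construction. No such choice was made among the lower-numbered genes, so the comparison does not show what the gap rests on. Within 1 kb of a transcript start the shares were 55.7% of members (88 of 158, 47.9 to 63.2%), 70.5% of lower-numbered Zfp genes and 42.9% of all genes. The 188 H3K27ac peaks at members had a median of 7.73-fold, against 8.05 at lower-numbered Zfp genes, 6.98 at other genes and 6.74 over the whole list. Of the members' H3K27ac peaks with a known start, 77.6% lay within 1 kb of it. The median promoter window held 16 CpG sites at members with H3K27ac near the start and 8 at members without. Over all members it held 11, against 15 over all genes.

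The highest H3K27ac peak was that of Zfp644 (chr5:106695092-106697138, 24.8-fold, rank 407 of 30047), with its summit on the transcript start. The product of Zfp644 is known as a partner of the H3K9 methyltransferases G9a and GLP. Zfp706, known to limit self-renewal in mouse embryonic stem cells, had 24.4-fold at its end (chr15:37006347-37008433), and Zfp609, whose product binds the cohesin loader Nipbl in mouse neural progenitors, had 24.0-fold near its end. Zfp866 followed with 22.8-fold, Zfp653 with 21.1-fold in a window shared with Ecsit, and Zfp958 with 20.6-fold. The most H3K27ac peaks lay at Zfp608, with 21 of 4.17- to 14-fold inside the gene, and at Zfp710, with 17, which was named after its count was seen. Both are long genes, and no other member had more than 6.

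Among genes with known roles, Zfp932, which acts on retroviral elements in mouse embryonic stem cells, had H3K27ac of 6.68- and 6.9-fold on either side of its start and no other peak. Zfp827, whose human counterpart is recruited to telomeres in some tumour cells, had 1 peak, H3K27ac of 11.7-fold in the gene. Zfp638, a cofactor in mouse fat cell formation, had CTCF of 7.11- and 14.4-fold and H3K27ac of 4.83- and 6.04-fold, all inside the gene. Zfp750, a regulator of epidermal differentiation, had H3K27ac of 7.71-fold at an end, in a window shared with Tbcd. Zfp687 had CTCF of 10.8-fold and no H3K27ac peak. With Zfp809 and Zfp644 counted, 6 of these 8 genes had H3K27ac, against 58.6% of all members and 48.6% of all genes, and 8 genes are too few to set them apart from either share.

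Taking the antibodies together, 58 members (32.0%) had no peak of any kind, against 31.2% of all genes. H3K27ac without CTCF or Trim33 was the commonest marked state, at 51 members (28.2%), against 13.3% of all genes. CTCF alone was at 14 members (7.73%), against 17.9% of all genes, and CTCF with H3K27ac at 39 (21.5%), against 25.9%. All 3 stood at 10 members (5.52%), against 7.25% of all genes. Trim33 with H3K27ac stood at 6, Trim33 alone at 2 (Zfp964 and Zfp804b) and Trim33 with CTCF at 1 (Zfp687).

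For no antibody did the share with a peak differ between clustered and single members beyond counting error. Trim33 was at 8 of 89 clustered members (8.99%) and 11 of 92 single members (12.0%), a difference of -2.97 percentage points (95% Newcombe interval -12.3 to 6.34). CTCF was at 27 clustered members (30.3%) and 37 single members (40.2%), a difference of -9.88 points (-23.2 to 4.01). H3K27ac was at 53 members of each kind, 59.6% of the clustered and 57.6% of the single ones, a difference of 1.94 points (-12.2 to 15.9). Each interval holds 0, and the CTCF interval allows a share up to 23.2 points lower in clustered than in single members, so these counts do not show that the classes are alike. Neighbours share sequence and surroundings and are not independent, so the intervals are descriptions and are likely too narrow.

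**Figure D3:**
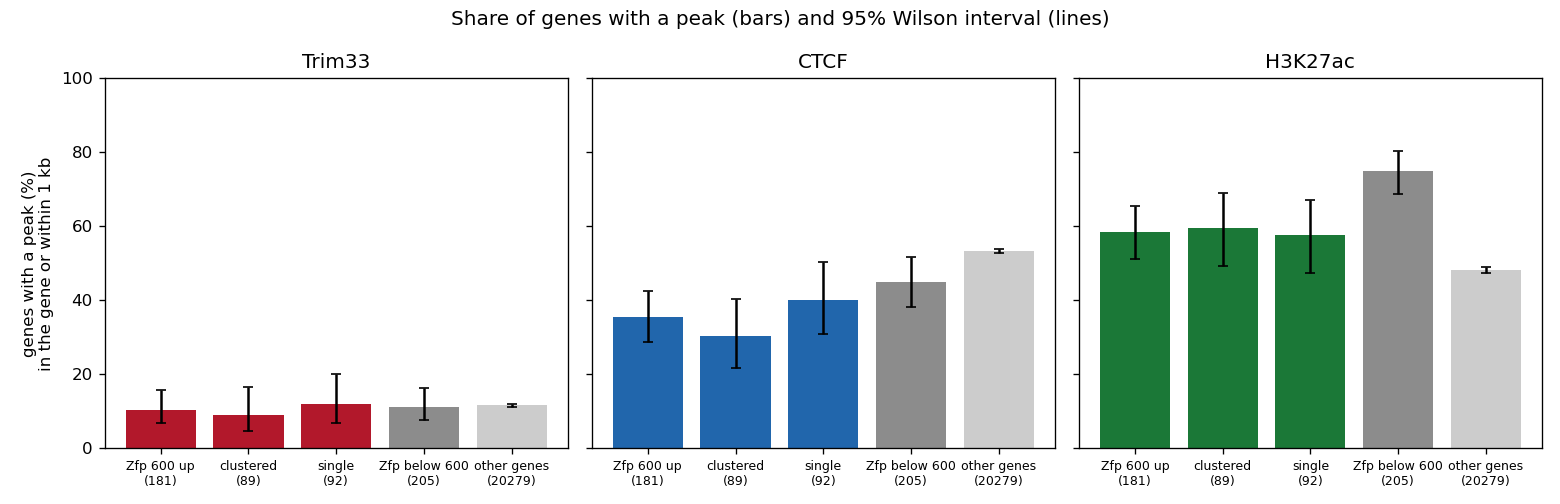
Bars give the percent of genes with at least 1 peak inside or within 1 kb, 1 panel per antibody, for all 181 Zfp genes numbered 600 upward, the 89 clustered and 92 single ones among them, 205 lower-numbered Zfp genes and 20279 other genes, with lines for 95% Wilson intervals. The intervals of clustered and single members overlap in every panel. CTCF runs from 30.3% in clustered members to 53.3% in other genes, and H3K27ac is highest, at 75.1%, in lower-numbered Zfp genes.

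At transcript starts the differences were likewise within counting error. Trim33 was at 6 of 79 clustered and 5 of 79 single members, a difference of 1.27 points (-7.39 to 10.0). CTCF was at 17 clustered (21.5%) and 14 single members (17.7%), a difference of 3.8 points (-8.66 to 16.1). H3K27ac was at 47 clustered (59.5%) and 41 single members (51.9%), a difference of 7.59 points (-7.75 to 22.4). Median lengths were 19.3 kb in clustered and 18.6 kb in single members, but mean lengths were 29.2 and 40.8 kb, as 2 clustered and 10 single members exceeded 100 kb. Per Mb, clustered members had 13.9 CTCF summits (9.8 to 19.2) and single members 18.8 (14.8 to 23.6), 26.0 and 30.2 H3K27ac summits, and 3.01 and 2.8 Trim33 summits. The 2 clustered members above 100 kb, Zfp993 (479 kb) and Zfp978 (267 kb), had no peak and lie in the nearly peak-free stretch of chromosome 4 described below. Their length lowers the clustered densities. Among single members, Zfp804b (575 kb) and Zfp804a (210 kb) had no CTCF or H3K27ac peak, which lowers the single densities of both. The densities were not recomputed without such long genes in either class, so how far these differences depend on them was not tested and their direction is not settled. H3K27ac with no other peak was at 31 clustered members (34.8%) and 20 single members (21.7%), while H3K27ac with CTCF was at 15 (16.9%) and 24 (26.1%). No interval was computed for these combinations, so they are not read as differences between the classes.

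The 32 runs held 2 to 5 members, 17 of them 2 members and 3 of them 5. H3K27ac stood at every member in 10 runs, and 6 runs held no peak of any kind. Trim33 reached 7 runs, and in 1 of them, on chromosome 13, it stood at more than 1 member (Zfp748 and Zfp729a). The 3 runs of 5 differed from each other. In the run of Zfp626, Zfp607a, Zfp974, Zfp780b and Zfp850 (chr7:27804731-28014210), peaks were listed only at Zfp780b (H3K27ac of 7.31-fold) and Zfp850 (H3K27ac of 5.75- and 6.55-fold).

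In the run of Zfp768, Zfp747, Zfp764, Zfp688 and Zfp689 (chr7:127342795-127449158), all 5 members had both CTCF and H3K27ac. Their highest CTCF peaks were of 8.07-fold at Zfp768, 13.4 at Zfp747, 14.9 at Zfp764, 7.16 at Zfp688 and 5.43 at Zfp689, and Zfp689 alone had Trim33. The highest H3K27ac peaks were of 9.32-fold at Zfp768, 5.41 at Zfp747, 7.41 at Zfp764, 10.9 at Zfp688 and 17.2 at Zfp689. That of Zfp764 lay 13353 bp downstream of its start, in a window shared with E430018J23Rik, and the CTCF peak of Zfp768 lay beyond its far end. In the run of Zfp868, Zfp964, Zfp869, Zfp963 and Zfp866 (chr8:69610654-69774911), H3K27ac stood near the start of 4 members, of 14.9-fold at Zfp868, 19.6 at Zfp869, 13 at Zfp963 and 22.8 at Zfp866. Zfp964, between Zfp868 and Zfp869, had Trim33 and no H3K27ac, and CTCF was listed only at Zfp868 (24.0-fold).

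A pair of regions, chosen after the peaks had been seen, held almost no peak. On chromosome 4, 15 members from Zfp990 to Zfp933 were among the 18 coding genes of a 2.34-Mb stretch (chr4:145510759-147849126), and Zfp933 alone had a peak (H3K27ac to 8.5-fold). The stretch held 2 CTCF summits, or 0.855 per Mb against 24.1 on the rest of the chromosome, 2 H3K27ac summits, or 0.855 per Mb against 14.1, and no Trim33 summit, against 1.9 per Mb. On chromosome 2, 9 members from Zfp968 to Zfp931 lay in 2.71 Mb with 26 coding genes (chr2:175372034-178078425), and none had a peak. That stretch held 1 CTCF summit (0.369 per Mb, against 23.4 on the rest of the chromosome) and no H3K27ac or Trim33 summit. How many bases of these regions could receive uniquely aligned reads was not measured here.

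**Figure D4:**
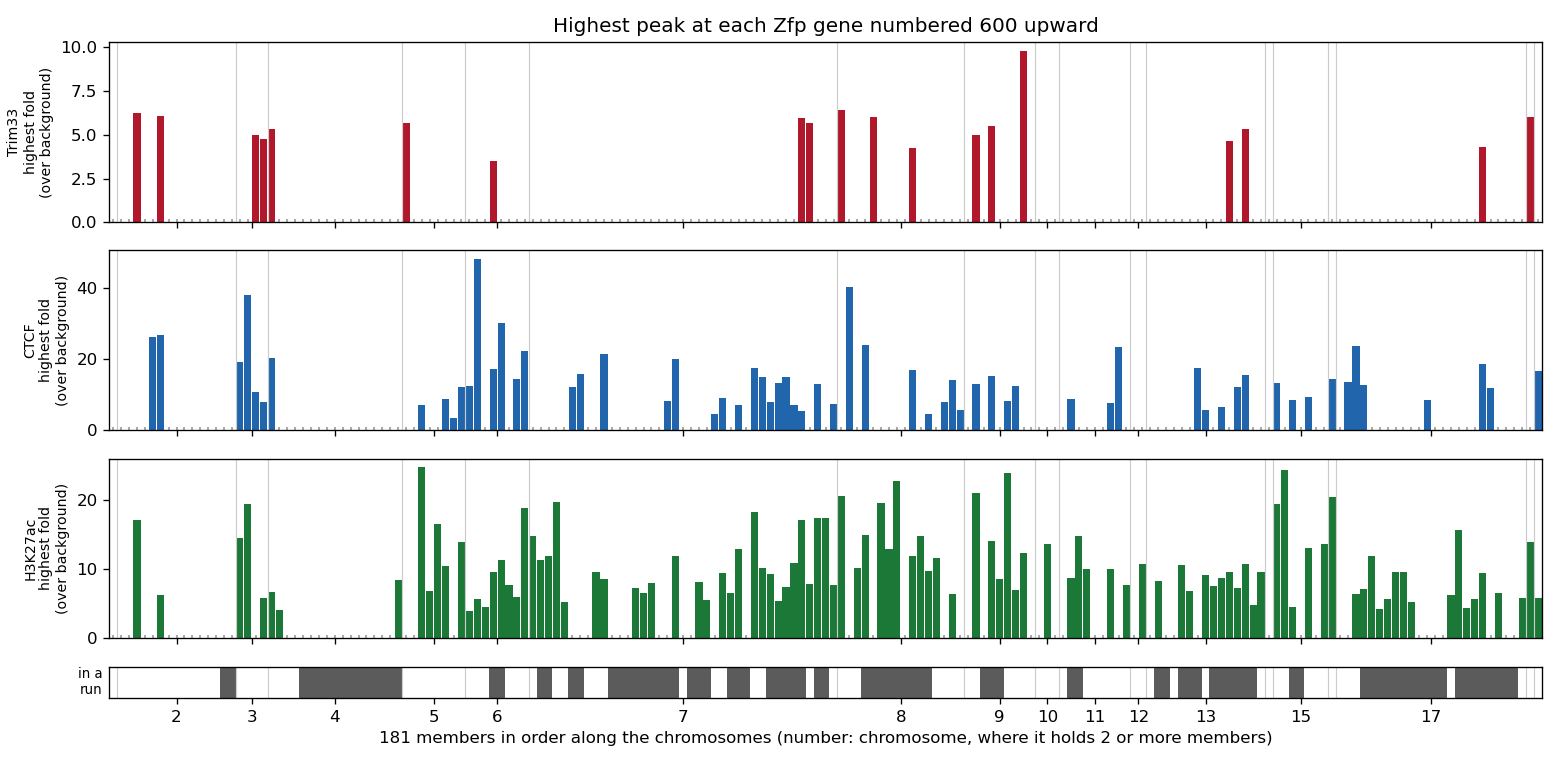
Bars give the authors' fold of the highest Trim33, CTCF and H3K27ac peak (panels from top to bottom, each with its own linear axis) at each of the 181 members, in order along the chromosomes, with vertical lines between chromosomes and a grey strip below for members in a run. No bar means no peak. The members at the right end of chromosome 2 and nearly all of chromosome 4 carry none, while most members on chromosomes 6, 7 and 8 carry H3K27ac.

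Without these 24 members, Trim33 was at 19 of the other 157 (12.1%), CTCF at 64 (40.8%) and H3K27ac at 105 (66.9%). Leaving these members out raises each share by construction, and no such choice was made among all genes. The members' CTCF share (33.4 to 48.6%) stayed below that of all genes. Their H3K27ac share was above that of all genes already with the 24 members in, so its position here adds nothing. Among those left, 74 were clustered and 83 single, with Trim33 at 10.8% and 13.3%, CTCF at 36.5% and 44.6%, and H3K27ac at 70.3% and 63.9%.

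Genes linked to repression by KRAB zinc finger proteins were listed from general knowledge for comparison, and 24 of 25 were matched. Most encode corepressors and chromatin enzymes, but the list also holds Zfp57 and Zfp42, DNA-binding zinc finger genes that count among the lower-numbered Zfp genes as well. Trim33 was at 5 of the 24 (Atf7ip, Mta2, Hdac1, Morc3 and Uhrf1), against 11.6% of all genes, CTCF at 20, against 53.1%, and H3K27ac at 21, against 48.6%. Trim28, the direct partner of the KRAB domain, had CTCF of up to 12.7-fold and H3K27ac of 20.1-fold and no Trim33. Setdb1, the H3K9 methyltransferase it recruits, had CTCF of up to 14-fold and neither other peak. Morc3, a chromatin ATPase, had the highest Trim33 peak of the list at 9.0-fold, beside H3K27ac of 27.7-fold. The list is short and was chosen by role, so its counts are a description.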

How the data were processed

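Libraries and peaks: the authors deposited 1 peak list per antibody, called against the input, each peak with its summit, its fold (the ratio of signal to background) and its p and q as −log10, and a summary of reads, tags and peaks that names MACS 2.1.0. The submitters' processing notes also name BWA 0.7.12, SICER 1.1, MACS, MACS2 and the builds mm10 and hg19, without roles. The deposited Trim33 list reaches down to a −log10 p of 5.06, and the CTCF and H3K27ac lists stop at 7.03.

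Genes came from the RefSeq table of GRCm38, which gives no exons, so exons and introns were not told apart, and a summit in 2 genes' windows counted for each. Promoter sequences are from RefSeq (GRCm38.p6), and strand and start are known only for genes in that table. Protein sequences were not used here, so fingers and KRAB domains were not counted. Shares have 95% Wilson intervals and differences 95% Newcombe intervals. Files were read with Python 3.11.15, pandas 2.3.3, numpy 2.4.6 and scipy 1.17.1, and drawn with matplotlib 3.10.9. The counting was tested on simulated data.

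Members and lists were chosen with earlier results of these data known. Members named were the 14 with the highest Trim33 fold, the 6 highest each for CTCF and H3K27ac, those with most CTCF peaks, the runs of 5 and 8 genes of known role. Alternatives covered the window, summit or any base, thresholds on p, q and fold, the closest gene only, and the meaning of clustered.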

Additional observations from a re-analysis of the deposited data

How the results depend on the processing

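With 1 library per antibody no library could be left out. No paired analysis was possible because no group had more than 1 library. Of the member counts, Trim33 depended most on the settings. It was at 12 members with gene ends only (6.63%, all genes 7.01%) and at 8 with peaks above the median fold of the list (4.42%, all genes 5.54%). With −log10 q of at least 10 it was at 1, Zfp651 (0.552%, all genes 1.62%). These shares were below those of all genes, but no interval was computed for such small counts, so no deficit is read from them. CTCF was at 36 members with gene ends only (19.9%, all genes 27.4%) and at 41 with peaks above the median fold (22.7%, all genes 40.9%). The other settings moved the counts by less than 1.5 times. H3K27ac stayed above the share of all genes in each setting (49.2% against 40.3% with gene ends only). Its gap was narrowest with peaks above the median fold of the list (44.2% against 39.5%), and no interval was computed for these settings. The clustered minus single difference ran from -7.39 to 2.43 points for Trim33, -13.0 to 0.66 for CTCF and -1.5 to 14.4 for H3K27ac over 12 settings each, and every interval held 0. At −log10 q of at least 10, 13 of 14 named members lost their Trim33 peak, 1 of 22 its CTCF peak and 0 of 33 their H3K27ac peak. With a window of 5 kb, 4 named members gained a CTCF peak, and the highest fold moved to 10.6 for CTCF at Zfp689, 9.69 for CTCF at Zfp609, 8.04 for Trim33 at Zfp629 and 13.5 for H3K27ac at Zfp786. Without the 24 members of the nearly peak-free regions, the H3K27ac share was 66.9%, a rise that leaving them out brings by construction.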

Other observations

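The members of 3 other groups, each within 500 kb of the next, were chosen after the peaks had been seen, and their counts stand beside shares over all genes of 48.6% for H3K27ac, 53.1% for CTCF and 11.6% for Trim33. On chromosome 13, 11 members from Zfp640 to Zfp738 (chr13:66670274-67683512) included 9 with H3K27ac, 5 with CTCF and 2 with Trim33. On chromosome 17, 14 members from Zfp677 to Zfp945 (chr17:21383707-22867309) included 9 with H3K27ac, 4 with CTCF and none with Trim33, and the stretch held 12.1 CTCF summits per Mb against 26.6 on the rest of the chromosome. On chromosome 7, 9 members from Zfp771 to Zfp646 (chr7:127242996-127885996), which lie among 31 coding genes, all had H3K27ac and 7 had CTCF, in a stretch with 65.3 CTCF summits per Mb against 26.0. In the promoter windows, CCGGAAG lay at 30 of 158 members (19%), 46 of 166 lower-numbered Zfp genes (27.7%) and 13.3% of all genes. It lay at 11 of 79 clustered members and 19 of 79 single members. GTCTAGAC lay in no member's window, against 0.28% of all genes' windows.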
